A study of Danio rerio with 3 samples.

Results

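Bone mineralization and osteoblast genes were examined in RNA from zebrafish cranial cartilage. The genes were taken by name from a list of 10, made of the osteoblast genes sp7, spp1, ifitm5, sparc and bglap and of the phosphate and pyrophosphate regulators phex, alpl, enpp1, entpd5a and phospho1. Of these, 8 had a row among the 14417 genes of the count table, 4 of them osteoblast genes and 4 regulators. The genes alpl and bglap were not matched to a row by symbol or by RefSeq synonym, so they are not described here. All 8 genes were matched by their plain symbol, and further rows with a paralog suffix were not searched for these genes.

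Osteoblasts build bone by secreting a collagen I matrix, which then takes up calcium phosphate mineral. Mineral grows where inorganic phosphate is plentiful and is held back by pyrophosphate, so enzymes that make or remove these ions set where bone hardens. In larval zebrafish, the first cranial bones include perichondral bone, a thin collar laid down on the surface of cartilage by cells of the perichondrium.

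All 3 samples were cartilage from the cranial base of wild-type larvae at 6 dpf, untreated and raised under standard conditions, and all belong to 1 group. The cartilage was cut by laser from the occipital region and is labelled as free of perichondrium. The samples are described as independent and are called libraries 1, 3 and 6 after their titles. The wild-type line of the study was AB, and the number of larvae behind each library is not given in the sources used here. With 1 condition there was no contrast to test, and values are compared between libraries as descriptions.

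The libraries held 25604897, 21290328 and 18920027 counts for libraries 1, 3 and 6. A single gene, AC024175.4, took between 34.7% and 59.0% of them, so counts were scaled by TMM, the trimmed mean of M-values, to normalized counts. On this scale 1 read was worth from 0.947 to 1.1 normalized counts. By counting error alone, a gene with 0 reads may still be present at up to 3 reads. This limit is 2.90, 3.30 and 2.84 normalized counts in libraries 1, 3 and 6. It does not cover loss of transcripts before sequencing. Library 1 had the most genes with 0 reads, 1108 against 831 and 487 in libraries 3 and 6. Of 26 chondrocyte markers found in the table, 25 reached 10 normalized counts in each library, and the most abundant were the cartilage collagen genes col2a1a, with 282200, 336420 and 480763, and col11a1a. Genes whose mean over the 3 libraries was 10 normalized counts or more are called expressed genes below, and there were 13166 of them. Although the tissue is labelled as free of perichondrium, collagen I genes of bone and connective tissue had reads in every library, as given below.

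The transcription factor gene sp7, also called osterix, was detected in 2 of the 3 libraries. It directs osteoblast differentiation downstream of Runx2. Libraries 1, 3 and 6 held 0, 27 and 47 reads of it, or 0, 29.7 and 44.5 normalized counts. Against the limit that 0 reads allow in library 1, sp7 was 10.3-fold higher in library 3 and 15.4-fold higher in library 6. These folds leave out the counting error of libraries 3 and 6. They also leave out any loss of transcripts in capture or amplification, which was not tested. The exact 95% Poisson intervals of libraries 3 (19.6 to 43.3) and 6 (32.7 to 59.2) overlapped. Its mean of 24.7 ± 22.7 normalized counts (SD, n = 3 libraries) fell to 14.9 without library 6. Among the expressed genes, 3.96% had 0 reads in library 1 and reads in both other libraries, as did sp7 and phospho1 among the 8 bone genes. This share covers expressed genes of every level. It was not computed for genes with means near those of sp7 and phospho1. In tissue RNA of this kind, fewer cells of a type and less RNA per cell cannot be told apart.

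The genes of Runx2 and its partner, which act with or before sp7, had reads in every library, and their order differed. The gene runx2a had 246, 172 and 193 normalized counts in libraries 1, 3 and 6, a spread of 1.43 times. The gene runx2b, the other zebrafish copy of Runx2, had 606, 492 and 1439 in the same order and was highest in library 6. For dlx5a, a homeobox gene of early osteoblasts named after its values were seen, the values were 24.1, 24.2 and 27.5. The gene cbfb, whose product is the partner of Runx proteins, was lowest in library 1, with 82.0, 196 and 177.

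The gene spp1 encodes osteopontin, an acidic phosphoprotein of bone matrix that binds mineral. It had 487, 27 and 37 reads in libraries 1, 3 and 6, or 470, 29.7 and 35.0 normalized counts. Library 1 was therefore 15.8-fold above library 3 and 13.4-fold above library 6, which lay within each other's counting intervals. The mean of 178 ± 253 (SD, n = 3) rests on library 1 and fell to 32.4 without it.

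The gene phex showed the same split as spp1. It encodes a membrane endopeptidase whose loss in humans causes hypophosphataemia with poorly mineralized bone. It had 124, 6 and 12 reads, or 120, 6.61 and 11.4 normalized counts, in libraries 1, 3 and 6. Library 1 exceeded library 3 by 18.1-fold and library 6 by 10.5-fold, and the 95% interval of library 1 (99.6 to 143) did not reach those of libraries 3 (2.43 to 14.4) or 6 (5.87 to 19.8). The mean of 45.9 ± 64.0 fell to 8.99 without library 1. Of the expressed genes, 6.61% were over 4-fold higher in library 1 than in both other libraries, as were spp1 and phex.

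**Figure D1:**
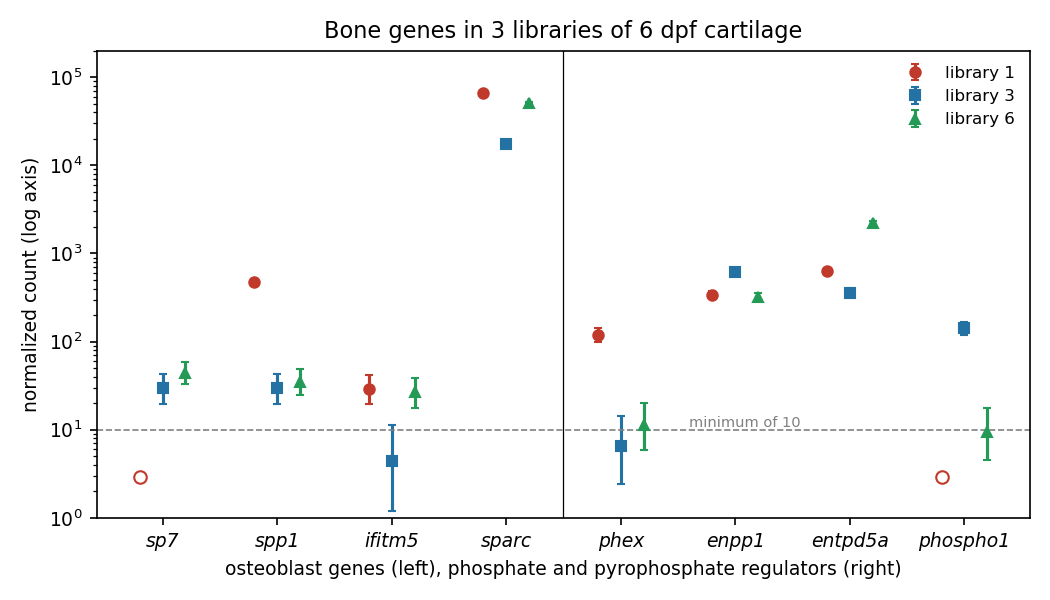
Normalized counts (log axis) of the 8 bone genes in libraries 1, 3 and 6; bars are exact 95% Poisson intervals, which cover counting error only, and open circles stand for 0 reads drawn at the limit of 2.90. The genes spp1 and phex were high in library 1 alone, whereas sp7 and phospho1 had no reads there.

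The gene ifitm5 encodes a small membrane protein of osteoblasts, Bril, that is mutated in a form of human brittle bone disease. It had few reads, with 30, 4 and 28 in libraries 1, 3 and 6, or 29.0, 4.41 and 26.5 normalized counts. Libraries 1 and 6 did not differ beyond counting error, and library 3 was lowest, with an interval of 1.20 to 11.3 that stayed under both others. Which of libraries 1 and 6 came out highest depended on the scaling, with library 6 highest at 32.5 against 25.7 under total-count scaling and at 27.9 against 26.8 under upper-quartile scaling.

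The gene sparc encodes osteonectin, a collagen- and calcium-binding matrix protein that is not limited to bone. It had 65879, 17673 and 51324 normalized counts in libraries 1, 3 and 6, a mean of 44958 ± 24726. Library 3 was again lowest, 3.73-fold below library 1. Total-count scaling placed library 6 highest instead, at 62852 against 58479. On this scale, which is not corrected for transcript length, the mean of sparc was above 99.8% of the genes in the table.

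The gene entpd5a, which zebrafish need to mineralize bone, encodes an enzyme that hydrolyses nucleotide phosphates. It had 631, 360 and 2234 normalized counts in libraries 1, 3 and 6, so library 6 was highest, 6.20-fold above library 3 and 3.54-fold above library 1. The mean of 1075 ± 1012 fell to 496 without library 6. In the RefSeq annotation of GRCz12tu, entpd5a overlaps the gene coq6, and reads from the shared stretch could have been counted for either. The row of coq6 did not follow entpd5a, with 5.79, 82.6 and 46.4 normalized counts.

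The gene enpp1 encodes the enzyme that releases pyrophosphate from ATP outside the cell and so slows mineralization. It varied least of the 8 genes, with 341, 623 and 324 normalized counts and a mean of 429 ± 168. Library 3 was highest, 1.83-fold above library 1 and 1.93-fold above library 6, while libraries 1 and 6 had overlapping intervals.

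The gene phospho1 encodes a phosphatase that frees phosphate inside the vesicles where mineral first forms. Nearly all its reads came from library 3, with 0, 128 and 10 reads in libraries 1, 3 and 6. These were 0, 141 and 9.47 normalized counts. Library 3 was 48.7-fold above the limit of library 1 and 14.9-fold above library 6, and the mean of 50.2 ± 78.8 fell to 4.73 without library 3.

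Counted together, 4 of the 8 genes (spp1, sparc, enpp1 and entpd5a) reached 10 normalized counts in each library, against 67.8% of all genes in the table. All 8 were expressed genes by their mean, but sp7, ifitm5, phex and phospho1 reached it only through the libraries where they were high. Over 4-fold differences between the highest and the lowest library were found for 6 of the 8, the exceptions being sparc and enpp1. The share was 44.2% of the expressed genes, and 60.9% of those with a mean between 10 and 200, a range that holds sp7, spp1, ifitm5, phex and phospho1. Large differences between libraries were thus common at these levels. Without library 1, 3 genes were over 4-fold apart, and without library 3 also 3, among those whose mean over the remaining libraries reached 10. This left out phex without library 1 (mean 8.99) and phospho1 without library 3 (mean 4.73). Leaving out a library can only narrow the span of a gene. The share of all genes was not computed for these settings.

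**Figure D2:**
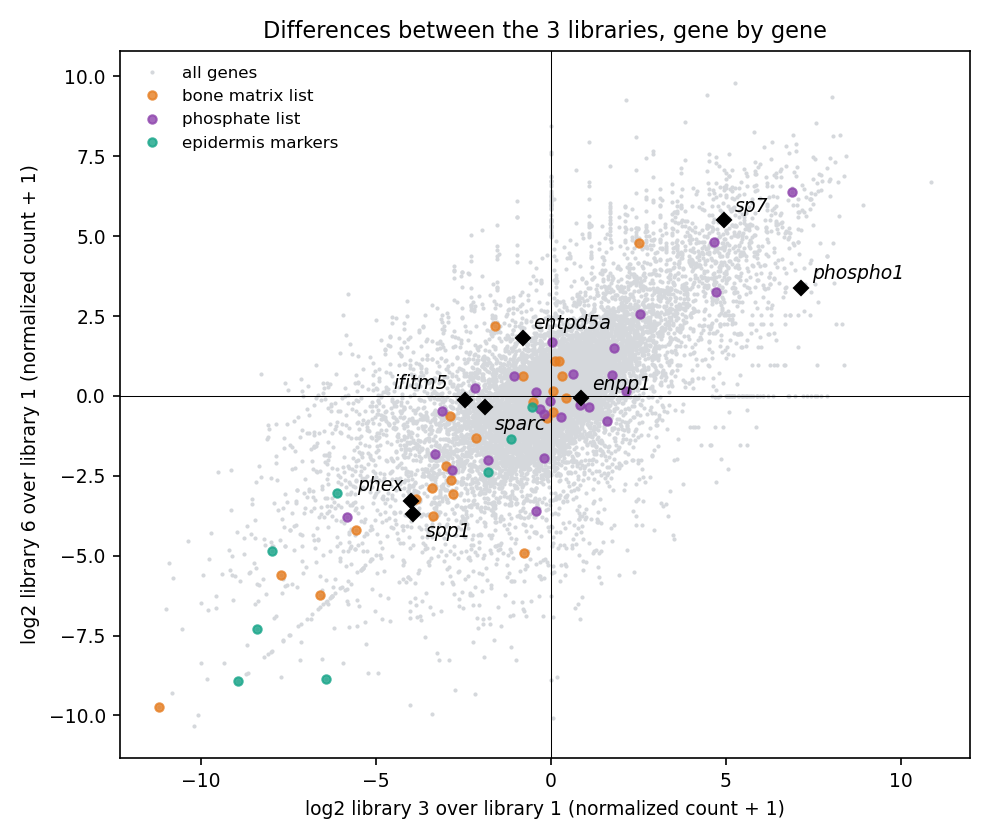
Log2 ratio of library 3 to library 1 (x axis) and of library 6 to library 1 (y axis), from normalized counts with 1 added, for the expressed genes; diamonds are the 8 bone genes and coloured points are listed genes. The genes spp1 and phex lie at the lower left among bone matrix and epidermis genes, and sp7 and phospho1 lie at the upper right.

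Osteoblast genes and phosphate regulators were compared within each library. Of the 4 osteoblast genes, spp1, ifitm5 and sparc shared the same order, highest in library 1, then library 6, then library 3, and sp7 did not. Of the 4 regulators, only phex had this order, which was found for 19.3% of the expressed genes. In all, 4 of the 8 genes were highest in library 1, against 35.4% of the expressed genes, and 5 were lowest in library 3, against 33.1%. Libraries 1 and 6 differed by only 30 against 28 reads for ifitm5. Under total-count scaling 2 of the 8 genes, spp1 and phex, were highest in library 1, and under upper-quartile scaling 3 were, so that of the osteoblast genes only spp1 held this order under every scaling tried. With TMM the regulators followed 4 different orders. That of enpp1 rested on 341 against 324 normalized counts in libraries 1 and 6, whose intervals overlapped. Under total-count scaling enpp1 was higher in library 6 than in library 1. It then had the same order as phospho1, library 3 over library 6 over library 1. The separate order of enpp1 thus depended on the scaling.

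The summed normalized counts of the osteoblast genes were 66378, 17736 and 51430 in libraries 1, 3 and 6, and those of the regulators were 1092, 1131 and 2578. The log2 ratio of these sums was 5.93, 3.97 and 4.32, with a mean of 4.74 ± 1.04 (SD, n = 3). This ratio is nearly that of sparc to entpd5a and enpp1, because sparc alone made up from 93.7% to 97.6% of the summed counts of the 8 genes. Without sparc the log2 ratio changed sign, to -1.13, -4.15 and -4.60, and without sparc and entpd5a it was 0.12, -3.59 and -1.70. In each of these forms library 1 had the highest ratio. Each form rests on few genes, because spp1 made up 470 of the 499 normalized counts that the osteoblast genes other than sparc had in library 1, where sp7 had none. Sums over different genes were not corrected for transcript length and do not rank the groups in expression.

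Collagen I genes were used as a yardstick within each library, a choice made after the values were seen, because reads of 2 genes in the same library need no scaling. The gene col1a1a, which encodes the main collagen chain of bone and also of skin, had 56620, 3876 and 5989 normalized counts in libraries 1, 3 and 6. Per 1000 reads of col1a1a, spp1 had 8.30, 7.67 and 5.85 reads in libraries 1, 3 and 6. For phex the ratios were 2.11, 1.71 and 1.90 reads per 1000. The intervals of the 3 libraries overlapped for each gene, and the ratios spanned 1.42 times for spp1 and 1.24 times for phex, while the genes' own levels spanned 15.8 and 18.1 times. Only 0.433% of the expressed genes kept a ratio to col1a1a within 1.5 times. This share is no test, because col1a1a was chosen with the values known. In library 3 the ratio of phex rested on 6 reads, with an interval from 0.625 to 3.71.

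The remaining osteoblast genes did not keep this ratio. For sp7 there were 7.67 reads per 1000 of col1a1a in library 3 and 7.43 in library 6, but none in library 1, where the limit was 0.0511. The ratio in library 6 was thus 145-fold above this limit, without the counting error of library 6. For ifitm5 the ratios were 0.511, 1.14 and 4.43 in libraries 1, 3 and 6. That of library 3 rested on 4 reads, and its interval (0.310 to 2.91) overlapped that of library 1 (0.345 to 0.730). The ratios of sparc were 1164, 4559 and 8570 reads per 1000, lowest in library 1.

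The choice of collagen chain mattered. Relative to col1a2, the ratio of spp1 spanned 3.02 times and that of phex 2.63 times, and relative to col1a1b they spanned 13.3 and 11.6 times. The 2 other chains differed even more between libraries than col1a1a did, by 47.7 times for col1a2 and 211 times for col1a1b. A ratio within 1.5 times was kept by 0.0912% of genes for col1a2 and by 0.0228% for col1a1b, and neither spp1 nor phex was among them.

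**Figure D3:**
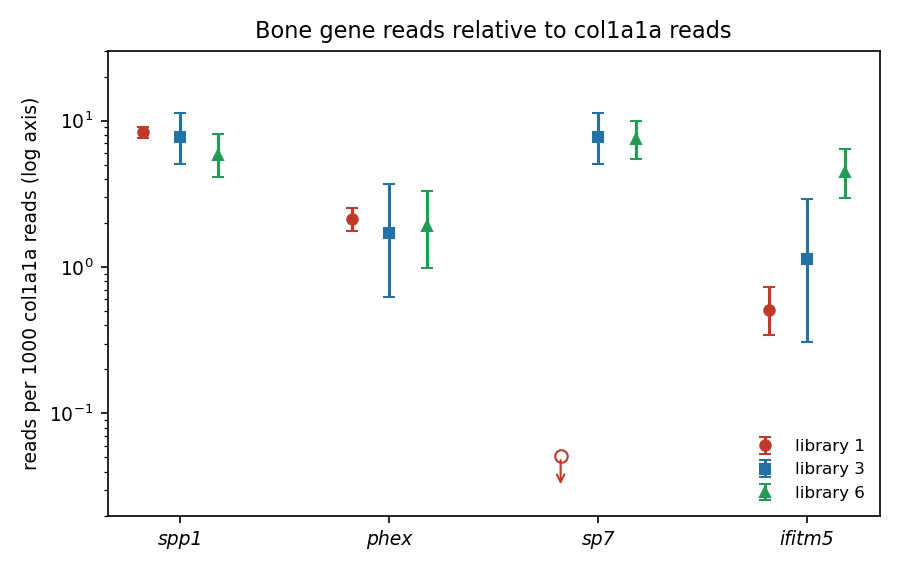
Reads of 4 bone genes per 1000 reads of col1a1a in the same library (log axis) with exact 95% binomial intervals; the open circle with an arrow is the limit of 0.0511 for sp7 in library 1. The 3 libraries overlap for spp1 and phex, while library 1 is lowest for sp7. For ifitm5 library 6 lies above library 1, whose interval overlaps that of library 3.

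The genes closest in pattern were found by the Euclidean distance of log2 values (normalized count plus 1) centred on each gene's mean over the 3 libraries, among 13165 other genes. For phex the nearest were dsc2l, a desmosomal cadherin gene by its name, at 0.072 and col1a1a at 0.085. For spp1 they were C25H11orf49 at 0.019 and si:dkey-103d23.1 at 0.075. For ifitm5 they were fat3a at 0.043 and si:dkey-121a11.3 at 0.062, and for sp7 scfd2 at 0.10 and MCTP1 (2 of 2) at 0.10, both with 0 in library 1. The distance between spp1 and phex was 0.37. With 3 libraries such likeness is a description, and 12 genes lay within 0.25 of spp1, 18 of phex, 12 of sp7 and 39 of ifitm5.

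The pattern of entpd5a was set beside genes of cartilage maturation, a comparison that was not planned. These genes were ihha, a hedgehog ligand gene of late cartilage named after its values were seen, and the collagen X gene col10a1a, listed as col10a1. Library 6 held 69.3% of the summed normalized counts of entpd5a, 56.7% of those of runx2b, 54.0% of those of ihha and 76.3% of those of col10a1. All 4 were next highest in library 1 and lowest in library 3, an order found for 13.5% of the expressed genes. Among expressed genes, 10 of 15 muscle markers and 4 of 25 chondrocyte markers had the same order. These chondrocyte markers were ihha and col10a1 themselves, col11a1a and hapln1a. By the muscle markers, the order was thus not particular to genes of cartilage maturation. The normalized counts of ihha were 7500, 4343 and 13883 and those of col10a1 were 1627, 574 and 7069 in libraries 1, 3 and 6. Per 1000 reads of ihha there were 84.2, 82.9 and 161 reads of entpd5a, and per 1000 reads of col10a1 there were 388, 628 and 316. The distance of entpd5a was 0.72 from col10a1, 0.77 from runx2b and 0.77 from ihha. It was 1.49 from ifitm5, 1.49 from col2a1a, 1.54 from sparc, 1.90 from runx2a and 3.61 from col1a1a. Within 0.25 of entpd5a lay 27 genes, none of which was col10a1, runx2b or ihha.

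**Figure D4:**
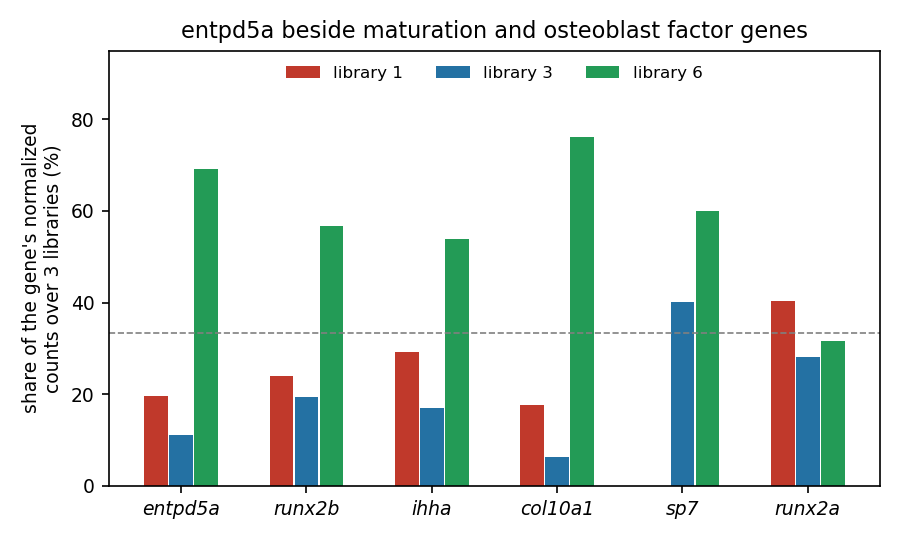
Share of each gene's normalized counts (summed over libraries 1, 3 and 6) that came from each library, in %; the dashed line marks an equal share. Library 6 holds 69.3% for entpd5a and from 54.0% to 76.3% for runx2b, ihha and col10a1, while runx2a is nearly even and sp7 has none in library 1.

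Other genes of bone formation were taken from lists of osteoblast factors and bone matrix genes. Of 54 listed genes, 38 were found, and 29 reached 10 normalized counts in each library, against 67.8% of all genes. Those not matched to a row included bglapl, ostn, omd, scpp1, scpp5, scpp7 and scpp9. The matrix list is not limited to bone and also holds genes of other connective tissue. Of the 24 matrix genes among the expressed genes, 15 were highest in library 1 and 15 were over 4-fold apart, against 35.4% and 44.2% of the expressed genes. Their median ratio of highest to lowest library was 7.78 against 3.38 over the expressed genes. The collagen V gene col5a1 had 13187, 1896 and 1585 normalized counts, and postna, which encodes a periostin, had 4948, 1.1 and 4.73. The gene col5a2b was at 29.0, 16.5 and 0. Of the 5 most abundant matrix genes, thbs1b alone was highest in library 6, with 14591, 15789 and 31182. The collagen-processing genes of the list that were looked at after their values were seen were under 3-fold apart. They were serpinh1b, a chaperone gene, with 2983, 2080 and 2597, bmp1a, a procollagen protease gene, with 1855, 1932 and 2047, and plod2, a lysyl hydroxylase gene, with 606, 347 and 934.5.

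Of the 10 osteoblast factor genes among the expressed genes, 3 were over 4-fold apart, against 44.2% of the expressed genes. All 3 were highest in library 1, as were 2188 of the 5824 expressed genes that were over 4-fold apart. They included twist2, with 391, 8.81 and 1.89 normalized counts, and twist3, with 304, 39.7 and 0, relatives of the mouse Twist genes that hold back Runx2. The other twist genes were below a mean of 10, with 1.93, 19.8 and 5.68 for twist1a, highest in library 3, and 15.4, 4.41 and 9.47 for twist1b. The other was dlx3b with 40.5, 4.41 and 15.1. The most abundant factor genes varied by less than 3 times, among them at 1741, 911 and 1210 for atf4b2 and at 778, 546 and 1078 for atf4b1.

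Of 50 further genes of phosphate and pyrophosphate handling, 27 were found and 19 reached 10 normalized counts in each library, a share close to the 67.8% of all genes. Of the 26 that were expressed genes, 10, 9 and 7 were highest in libraries 1, 3 and 6, and 13 were over 4-fold apart, with a median ratio of 3.98. Over the expressed genes, 35.4% were highest in library 1 and 44.2% were over 4-fold apart, so these counts were near the background. The most abundant included slc20a1b, a sodium-phosphate cotransporter gene, at 4205, 5152 and 2636, vdrb, a vitamin D receptor gene, at 4518, 3964 and 3024, and fgfr1a at 3817, 3718 and 3447. A cytosolic pyrophosphatase gene, ppa1b, had 2241, 4741 and 1768, and stc2a, a stanniocalcin gene, had 878, 3065 and 2498.

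The 3 genes of this list with the largest spread were transporter genes with 0 or 2 reads in library 1. The pyrophosphate transporter gene ankhb had 0, 24.2 and 27.5 normalized counts in libraries 1, 3 and 6, and the phosphate exporter gene listed as xpr1 had 0, 25.3 and 8.52. The second copy of the cotransporter gene, slc20a1a, had 2 reads in library 1 and 342.6 and 242.4 normalized counts in libraries 3 and 6. Of the expressed genes, 3.96% had 0 reads in library 1 alone, as given above for sp7. Other phosphate transporter genes of the list had no such gap, with 1009, 1550 and 1638 normalized counts for slc20a2 and 217, 384 and 177 for slc34a2b. By contrast fam20cb, a copy of the gene for the kinase that phosphorylates osteopontin in humans, was highest in library 1 as phex and spp1 were, at 118.7, 1.1 and 7.57. It was named after its values were seen.

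Markers of other tissues also differed between libraries. All 8 epidermis markers found were highest in library 1, against 35.4% of the expressed genes. Their normalized counts summed to 40985 in library 1, against 6248 and 6416 in libraries 3 and 6. The keratin gene krt5 had 17257, 49.6 and 109.8, the row zgc:92533, listed as krt91, had 11122, 5039 and 4354, and cldne had 488 in library 1 and 0 in both others. Of 16 osteoclast markers, 8 were found, and their sums were 2034, 625 and 604. In library 1 this sum was mostly ctsk, a protease gene with 1498, 0 and 8.52 in libraries 1, 3 and 6. The other 7 osteoclast genes differed among themselves. The transcription factor gene spi1b, with 139, 67.2 and 39.8, and mmp9, with 22.2, 17.6 and 5.68, were also highest in library 1. The genes nfatc1, with 10.6, 69.4 and 62.5, and tcirg1, with 206.6, 328.2 and 77.6, were highest in library 3. The genes acp5a, with 19.3, 13.2 and 24.6, and clcn7, with 138, 129 and 379, were highest in library 6, and the receptor gene csf1ra had no reads in libraries 1 and 3. The part of skin, osteoclasts or bone-forming cells in the high spp1, phex and collagen I of library 1 was not tested.

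The sums of the remaining marker lists went other ways. Muscle markers (15 of 19 found), led by mylpfa and pvalb2, summed to 11813, 5705 and 21765 normalized counts in libraries 1, 3 and 6. Blood markers (6 of 9 found), led by hbaa1 and ba1, summed to 35117, 5077 and 36814. Both sums were lowest in library 3, as were spp1, phex, ifitm5, sparc and entpd5a among the bone genes. Neural markers (13 of 14 found), led by tuba1c and tubb5, summed to 10927, 18018 and 22411, lowest in library 1, and those of vessels and macrophages (5 of 11 found), led by fli1a and coro1a, to 418, 766 and 826. Single markers did not all follow these sums. Among expressed genes, 10 of 15 muscle and 4 of 5 blood markers were lowest in library 3, against 33.1% of all expressed genes. Likewise 10 of 13 neural and 2 of 4 vessel and macrophage markers were lowest in library 1, against 5045 of the 13166 expressed genes. Both pvalb2, with 3130, 1172 and 995, and fli1a, with 348, 330 and 232, were lowest in library 6. The part of these tissues in the values of the bone genes was not tested.

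The 8 bone genes lie on 8 different chromosomes in GRCz12tu, so none is a neighbour of another. In the same annotation sparc and phospho1 each overlap a noncoding gene that was not matched to a row, and a library kit that does not mark strand cannot separate such reads.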

How the data were processed

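RNA of laser-captured cartilage was amplified for 1 round and sequenced by the authors, who deposited unnormalized whole-number read counts for each gene symbol. The submitters' processing notes name Trimmomatic 0.36, edgeR and the build Zv9; the aligner and counting tool are not given in the sources used here. Totals were 25604897, 21290328 and 18920027 counts. All 3 columns were used.

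Counts were scaled by TMM on all genes (edgeR 4.0.16, R 4.3.3) to the mean effective library size. A gene passed when each library reached 10 normalized counts. Spread was described for genes whose mean reached 10. Intervals are exact 95% Poisson or binomial intervals and cover counting error only, since amplified reads are not independent molecules; 0 reads allow up to 3. Further calculations used Python 3.11.15, scipy 1.17.1 and pandas 2.3.3. The scaling was tested on simulated data with less spread between libraries than these data. That test cannot tell how the scaling performs at the spread seen here. Names and overlaps came from RefSeq on GRCz12tu, whose coordinates are not printed because the counts use another build.

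The members and lists were chosen with earlier results of these data known. Named were all members, the 5 most abundant genes and the 3 with the largest spread of each bone list, the 2 nearest genes in pattern of sp7, spp1, phex and ifitm5, the most abundant gene, col1a1a, col1a2, col2a1a and col10a1a, and the 2 most abundant markers of each tissue. Other names were added after their values were seen. These include dlx5a, ihha, serpinh1b, bmp1a, plod2, slc20a2, slc34a2b, twist1a, twist1b, fam20cb, coq6, cldne, acp5a, csf1ra, spi1b, mmp9, nfatc1, tcirg1, mgp, bgna, lum, dcn and abcc6a. Alternatives were DESeq2 1.42.0 size factors, other scalings, minimums and pseudocounts, other groupings and leaving out each library.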

Additional observations from a re-analysis of the deposited data

How the results depend on the processing

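No paired analysis was possible because the 3 samples share 1 condition. The number of bone genes past the minimum was 4 under each scaling, 8 when the mean had to reach 10, and from 4 to 6 with 1 library left out. The number over 4-fold apart was 3 with a mean of at least 50, and from 3 to 5 with 1 library left out, the 5 without library 6. It was 5 with a pseudocount of 5. On raw counts it was 7, because sparc then passed with 68252 and 16044 reads in libraries 1 and 3. The number highest in library 1 was 2 under total-count scaling and 2 with a mean of at least 50. It was 5 without library 3 and 5 without library 6. A mean of at least 50 left out sp7, ifitm5 and phex, so both counts were then over fewer genes. With 1 library left out, the mean of the remaining libraries had to reach 10. The shares of all genes under these settings were not computed. Total-count scaling moved the median log2 ratio of library 6 to library 1 over the expressed genes from 0.051 to 0.51. The log2 ratio of osteoblast genes to regulators was -1.43 as a difference of medians, -3.29 without sparc and -1.73 without sparc and entpd5a, the last chosen after seeing the data. It was 6.31 without entpd5a, 0.70 as a difference of means with a pseudocount of 1 and 0.69 with 0.1, because sparc then weighs as 1 gene among 4. Leaving out 1 library gave from 4.14 to 5.12. Other phosphate genes past the minimum numbered 12 with a minimum of 50. When any 1 library was dropped they numbered from 20 to 21, and the matrix and factor genes from 29 to 31. None of the 48 means of bone genes under another scaling moved by over 1 SD, but this limit is loose. The SD was from 39.2% (enpp1) to 157% (phospho1) of the mean. The highest library of ifitm5 and sparc still changed with the scaling. With 1 library left out, 5 of 24 means moved by over 1.5 times. Division by coding length was not run, and no transcript sequences were used. Depth limits sp7, ifitm5, phex and phospho1, which had 30 or fewer reads in at least 2 libraries or none in 1.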

Other observations

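Some bone matrix genes did not have the order of collagen I between libraries. The matrix Gla protein gene mgp, whose product holds back calcification of cartilage and vessels, had 17.4, 104 and 511 normalized counts in libraries 1, 3 and 6, and was highest in library 6. The biglycan gene bgna had 35.7, 11.0 and 165 and was also highest in library 6. The related proteoglycan genes lum and dcn followed collagen I instead, with 2122, 20.9 and 27.5 for lum and 10169, 1258 and 2199 for dcn. The transporter gene abcc6a, whose human relative keeps soft tissue from calcifying, had 63.7, 377 and 384 and was lowest in library 1. All 5 genes were named after their values were seen.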
